A study of Mus musculus with 6 samples.

Results

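The genes described here encode the nuclear subunits of the mitochondrial respiratory chain and of ATP synthase, in livers of mice on a normal diet and on CDAHFD. They were chosen by name: symbols of the Nduf, Sdh, Uqcr, Cox4 to Cox8 and Atp5 families, with pseudogene names left out and at least 10 reads summed over the 6 libraries. Of 97 genes with such a name, 8 bore pseudogene names and 5 fell below the minimum, which left 84 members among the 26131 genes with at least 1 read. Complex I accounted for 37 of them, complex II for 4, complex III for 8, complex IV for 18 and complex V for 17. A name rule is not a list of subunits. Among others it left out Ndufb1-ps, the symbol under which the mouse gene of the NDUFB1 subunit is listed, and Cyc1, the cytochrome c1 of complex III. Cyc1 is counted below with the electron carriers. The rule took in Atp5s, an ATP synthase factor outside the core enzyme, and Cox7a2l, a factor of supercomplex assembly. Subunits encoded by mitochondrial DNA were not analysed here.

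RNA-seq was run on 3 liver libraries per diet. CDAHFD is a diet rich in fat that lacks choline and supplies defined amino acids in place of protein, widely used to produce steatohepatitis in mice. The labels name the diets and the tissue and give no strain, genotype, sex, age or feeding time, and they do not say that the libraries of a diet came from separate mice, so the p-values stand for the variation among these libraries only, which may be technical. The study set out to compare lipid metabolism and mitochondrial pathways between the diets, and its title concerns metabolic dysfunction-associated steatohepatitis.

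The respiratory chain passes electrons from NADH (complex I) and succinate (complex II) through coenzyme Q to complex III, and from there through cytochrome c to complex IV, where oxygen is reduced. Complexes I, III and IV pump protons across the inner mitochondrial membrane, and ATP synthase, complex V, uses the returning protons to make ATP. In liver this machinery serves fatty acid oxidation, gluconeogenesis and urea synthesis, and several of its subunits exist as liver and muscle isoforms encoded by separate genes.

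Promoter sequences of 6 members are shown because nuclear respiratory chain genes are known targets of a small set of transcription factors: nuclear respiratory factor 1 (NRF1), the ETS factor GABP, YY1 and the estrogen-related receptors (ERR). RefSeq windows on build GRCm38.p6, from 250 bases before to 50 after the start site, were found for 66 members. The letters searched, on both strands, were GCGC, any base and TGCGC in a row for NRF1, CCGGAAGT for ETS factors, AAGATGGC for YY1 and CAAGGTCA for ERR. The 200 bases before the start are printed 5′ to 3′ on the gene's strand, with whole matches in capitals. Sdha, Atp5h, Uqcrh, Cox7b and Ndufb5 are the members of their complexes with the largest fall among those called lower that have an entry, and Cox6a1 is the member with an entry and the highest TPM (abundance per gene length) that was not called lower. Cox8a, also picked by TPM, is not printed because its match runs past the end of the 200 bases.
Sdha (complex II, chr13:74350241-74350440, minus strand): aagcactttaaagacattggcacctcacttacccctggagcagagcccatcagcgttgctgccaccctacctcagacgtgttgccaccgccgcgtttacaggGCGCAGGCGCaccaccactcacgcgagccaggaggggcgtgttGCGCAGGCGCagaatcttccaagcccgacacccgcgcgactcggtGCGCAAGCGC
Atp5h (complex V, chr11:115419920-115420119, minus strand): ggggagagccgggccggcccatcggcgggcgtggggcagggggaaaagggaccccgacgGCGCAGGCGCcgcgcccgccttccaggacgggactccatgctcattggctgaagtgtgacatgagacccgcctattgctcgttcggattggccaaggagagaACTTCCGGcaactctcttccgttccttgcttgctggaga
Uqcrh (complex III, chr4:116075071-116075270, minus strand): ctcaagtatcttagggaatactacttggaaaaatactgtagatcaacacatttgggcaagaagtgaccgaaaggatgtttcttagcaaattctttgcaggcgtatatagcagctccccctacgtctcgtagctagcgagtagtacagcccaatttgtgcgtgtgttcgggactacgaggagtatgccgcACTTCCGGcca
Cox6a1 (complex IV, chr5:115348959-115349158, minus strand): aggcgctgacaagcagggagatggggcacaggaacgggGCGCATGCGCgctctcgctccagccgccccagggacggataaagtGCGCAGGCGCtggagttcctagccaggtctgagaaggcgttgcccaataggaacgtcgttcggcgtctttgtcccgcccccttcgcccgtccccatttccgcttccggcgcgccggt
Cox7b (complex IV, chrX:106015500-106015699, plus strand): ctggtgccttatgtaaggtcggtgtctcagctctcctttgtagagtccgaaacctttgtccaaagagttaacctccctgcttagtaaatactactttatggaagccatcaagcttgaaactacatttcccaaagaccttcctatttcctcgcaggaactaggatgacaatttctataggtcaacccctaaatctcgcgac
Ndufb5 (complex I, chr3:32736863-32737062, plus strand): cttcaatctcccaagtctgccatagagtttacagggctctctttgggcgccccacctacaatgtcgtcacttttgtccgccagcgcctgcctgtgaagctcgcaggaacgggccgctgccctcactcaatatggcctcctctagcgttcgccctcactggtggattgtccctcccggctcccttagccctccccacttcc

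The NRF1 letters occurred in 16 of the 66 windows (24.2%), against 4.78% of all 27025 promoter windows of that length. For YY1 the shares were 13.6% of the members and 2.88% of all windows, for ERR 6.06% and 1.53%, and for ETS 7.58% and 4%. The Sdha window held 3 NRF1 matches, that of Cox6a1 held 2 and that of Atp5h held 1 beside an ETS match. The letters were absent from the printed bases of Cox7b and Ndufb5, which says only that these exact letters are not there. Of the members with an entry, 35 were called lower and 30 were tested and not called lower. NRF1 letters lay in 28.6% of the former and 20% of the latter, ETS letters in 5.71% and 10%, YY1 letters in 11.4% and 16.7%, ERR letters in 11.4% and 0%, and any of these in 45.7% and 43.3%. A match is a match of letters, not evidence of binding.

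The 6 libraries held 21986215 to 25628531 counted reads, of which the members took 0.988% to 1.17%. In this liver RNA the hepatocyte marker genes were abundant in every library, at a summed 159397 to 176977 CPM (read counts scaled to library size, here with totals adjusted by edgeR's TMM method) on the normal diet and 117175 to 132479 on CDAHFD. Markers of other cell types were higher on CDAHFD: all 13 macrophage markers passed the test, at a summed 386 to 519 CPM on the normal diet and 2559 to 2754 on CDAHFD, as did 10 of 10 stellate cell and fibroblast markers (307 to 373 against 1350 to 1597), 6 of 6 cholangiocyte markers (26.9 to 33.6 against 158 to 203), 6 of 7 lymphocyte markers (12.6 to 13.7 against 44.9 to 65.3) and 4 of 4 neutrophil markers (1.91 to 3.20 against 20.9 to 26.0). No marker of these 5 lists was at 0 in all libraries (Cldn4, of the cholangiocyte list, was at 0 in replicate 2 of the normal diet), and 1 of 7 endothelial markers passed. The part of this shift in the members' values was not tested, and in bulk liver fewer hepatocytes and less RNA per hepatocyte cannot be told apart.

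Replicate 2 of the normal diet stood apart for these genes. Its members lay at a median of -0.24 log2 from the mean of its diet, with 66 of 79 below that mean, and its gene-wise deviations from that mean had a Spearman's rho of -0.44 with GC content across all genes, against 0.37 in replicate 3 of the same diet, a description across genes that share a library. The part of GC content in the members' values was not tested. Results are therefore given with and without this library.

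With TMM scaling, which centres the change of most genes near 0, the respiratory chain was lower on CDAHFD in all 5 complexes. Of the 79 members with enough reads to test, 45 (57.0%) fell and 2 rose at an adjusted p under 0.05 in edgeR's quasi-likelihood test with Benjamini-Hochberg adjustment, and 32 did not pass. Over all 14215 genes tested, 23.5% were called lower and 28.5% higher. Of the 2 higher genes, Cox6a2 entered the test only through its CDAHFD reads. The members' median log2 change was -0.41 beside 0.01 over all genes, and 72 of 79 members had a negative change. The falls were modest: those called lower stood at 56.3% to 79.5% of the normal diet level (log2 -0.83 to -0.33), and no member was called lower by 2-fold or more. The CDAHFD libraries lay wholly below the normal diet libraries for 39 members, against 28.4% of all genes, and the groups overlapped for 38. Without replicate 2 of the normal diet, 62 members were called lower, beside 21% of all genes, and 44 of the 45 were among them. With RLE factors in place of TMM, 48 members were lower, beside 24.7% of all genes, and 1 was higher, beside 27.9%. Leaving out each library in turn, 31 of the 45 were called in all 6 fits.

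The size of the fall depended on what the libraries were scaled to. Scaling to total counts moved the median of all genes to 0.34, and 14 members were then lower, beside 8.07% of all genes, 3 were higher, beside 44%, and the members' median was -0.08. Scaling to the hepatocyte marker list moved the median of all genes to 0.45. Uqcrb alone was then lower, beside 4.78% of all genes, 7 members were higher, beside 47.7%, and the members' median was 0.04. In the deposited TPM, all 84 members were tested with limma on log2(TPM + 1). Of them 5 were lower, beside 4.7% of all genes, and 5 higher, beside 36.2%, with a members' median of -0.01 and an all-gene median of 0.24. The 5 higher were Ndufa8, Ndufa4l2, Atp5s and, both with few reads, Cox6a2 and Cox6b2. Relative to the median gene, the members stood at -0.42 with TMM, RLE, upper quartile and total count scaling, at -0.41 with hepatocyte marker scaling and at -0.25 in log2(TPM + 1). In log2(TPM + 0.1) they stood at -0.42, with the median of all genes at 0.41 and that of the members again at -0.01. The agreement among the scalings of the counts was fixed in advance, since a library factor moves every gene by nearly the same amount. It is therefore a single observation, not a repeated one. The 14 genes lower with total counts were Ndufb5, Ndufb9, Ndufa5, Ndufs1, Ndufv2, Sdha, Uqcrb, Uqcrh, Uqcrc2, Cox7b, Ndufa4, Atp5h, Atp5f1 and Atp5c1.

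**Figure D1:**
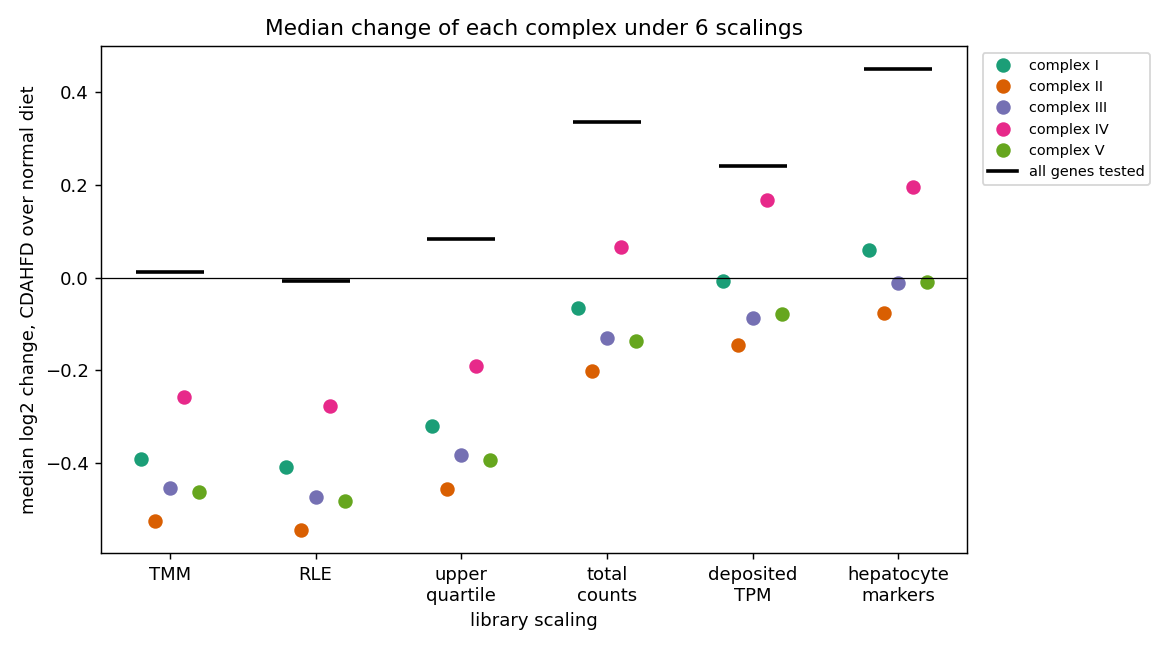
Median log2 change (CDAHFD over normal diet) of the tested members of each complex (dots) and of all genes tested (bars), under 6 library scalings. The dots lie under the all-gene bar in each of the 6. Scalings of the counts move dots and bar by nearly the same amount, so their distance is not a separate result in each. The dots' side of 0 changes: all 5 complexes are below 0 with TMM, RLE and upper quartile, and complex IV is above 0 with total counts (0.07), TPM (0.17) and hepatocyte markers (0.20), where complex I is also above 0 (0.06).

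The level summed over all members was read on both kinds of scale. The members' TPM summed to 17503, 14862 and 17679 on the normal diet and to 16429, 16678 and 16789 on CDAHFD. The groups overlapped, the means had a ratio of 0.997, and the low normal diet value is that of replicate 2. On TMM-scaled totals the sums were 13234, 11058 and 12997 CPM on the normal diet and 8799, 9490 and 9138 CPM on CDAHFD, a ratio of 0.736 with no overlap. Complex II had the lowest ratio and complex IV the highest on either scale: 0.855 and 1.11 in TPM, and 0.651 and 0.818 in CPM.

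**Figure D2:**
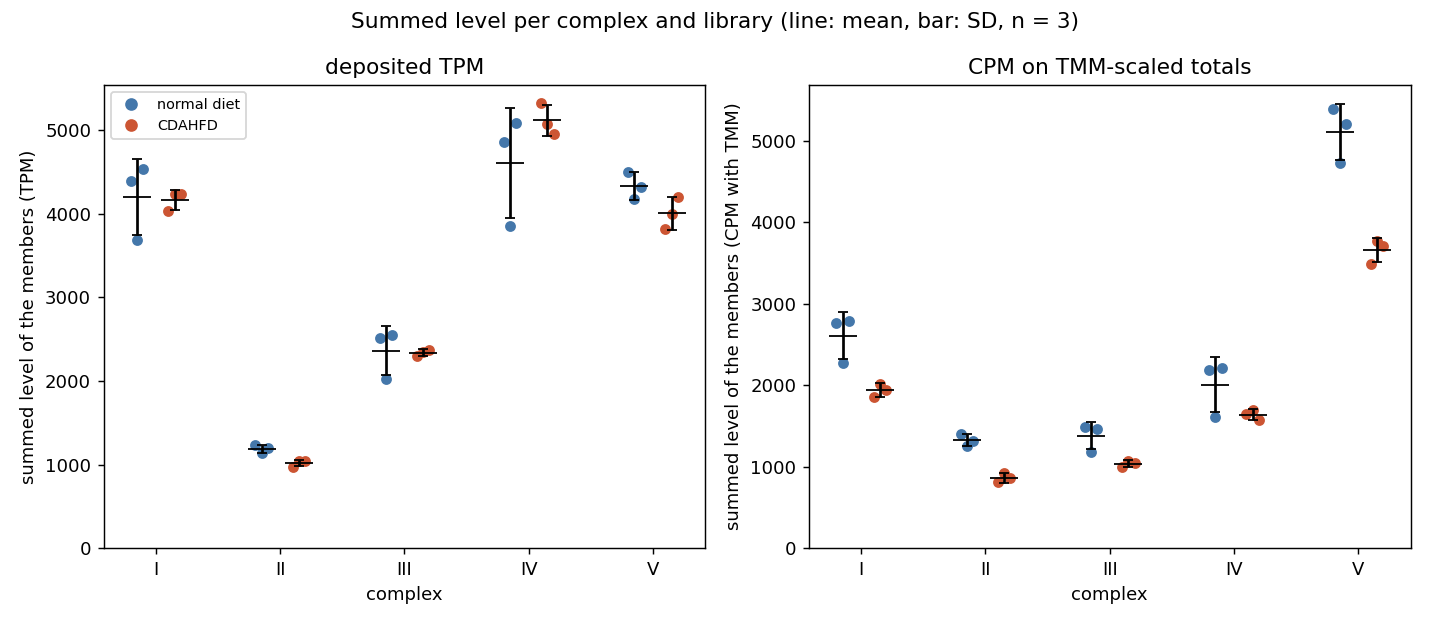
Summed level of the members of each complex in every library (dots), with the diet mean (line) and SD (bar, n = 3), in deposited TPM (left) and in CPM on TMM-scaled totals (right). In CPM the diets separate for complexes I, II, III and V, while in TPM only complex II separates, at 1135 to 1232 on the normal diet and 972 to 1038 on CDAHFD. Within complex II, Sdha and Sdhd do not overlap in TPM, while Sdhb and Sdhc do (Sdhc means 129 and 130). On total counts, not drawn, complexes II and V separate.

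Complex II, succinate dehydrogenase, also works in the tricarboxylic acid cycle. All 4 of its genes fell with TMM (median log2 -0.53), beside 23.5% of all genes. Sdha, the flavoprotein that oxidises succinate, was at 779, 779 and 689 CPM on the normal diet and at 409, 496 and 439 on CDAHFD. The groups did not overlap, and the log2 change was -0.74 ± 0.12 (SE; adjusted p = 0.000313, edgeR). Sdhd, one of the membrane anchors, was at 228, 171 and 229 CPM against 134, 143 and 137, with replicate 2 lowest on the normal diet and no overlap (-0.60 ± 0.13, adjusted p = 0.00203, edgeR). Sdhb, the iron-sulfur subunit, changed by -0.45 ± 0.13 (adjusted p = 0.0146, edgeR) and Sdhc, the other anchor, by -0.37 ± 0.11 (adjusted p = 0.0190). Sdhb lost its call without normal diet replicate 1 (adjusted p up to 0.0519), and Sdhc without normal diet replicate 1 or CDAHFD replicate 1 (up to 0.0753, edgeR). With total counts Sdha alone of the 4 was lower (-0.42, adjusted p = 0.00787, edgeR), and with hepatocyte marker scaling none was, with Sdha at -0.31 (adjusted p = 0.0721) and Sdhb and Sdhc above 0.

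Complex I, the NADH dehydrogenase, is the largest complex of the chain. With TMM 19 of its 35 tested genes fell and none rose (median -0.39), beside 23.5% and 28.5% of all genes. Its 7 core subunits carry the flavin and the iron-sulfur clusters, and 5 of them fell (median -0.51). Ndufs1, which holds iron-sulfur clusters of the electron path, was at 120, 144 and 112 CPM on the normal diet and at 72.2, 88.0 and 77.8 on CDAHFD, with no overlap (-0.66 ± 0.12, adjusted p = 0.00105, edgeR). Ndufv2, its neighbour in the NADH-oxidising arm, was at 99.9, 104 and 94.7 CPM against 61.4, 69.6 and 62.3. The diets did not overlap, and it fell by 0.63 ± 0.10 on the log2 scale (adjusted p = 0.000370, edgeR). Ndufv1, the subunit that binds NADH and flavin, changed by -0.51 ± 0.13 (adjusted p = 0.00689, edgeR). Ndufs3, the core gene with the highest TPM that did not pass, was at 129, 80.7 and 136 CPM against 84.0, 90.4 and 84.5 (-0.42 ± 0.17, adjusted p = 0.0552, edgeR). The low value is that of replicate 2, and without it the change was -0.63 (adjusted p = 0.000648, edgeR).

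The Ndufb genes encode accessory subunits of the membrane arm, and 6 of 10 tested fell with TMM (median -0.49), beside 23.5% of all genes. Ndufb5 was at 50.1, 44.7 and 34.1 CPM on the normal diet and at 19.2, 29.1 and 24.5 on CDAHFD (-0.82 ± 0.17, adjusted p = 0.00192, edgeR). Ndufb9 was at 26.6, 21.6 and 22.2 CPM against 10.2, 13.7 and 16.4 (-0.81 ± 0.17, adjusted p = 0.00197, edgeR). Neither overlapped between diets, although the values within a diet spread widely, and 19.5% of the exonic bases of Ndufb9 are shared with another gene on the same strand. Ndufb11 changed by -0.61 ± 0.12 (adjusted p = 0.00169, edgeR) and Ndufb3 by -0.56 ± 0.16 (adjusted p = 0.0125). Ndufb6, the member of the group with the highest TPM that did not pass, was at -0.39 ± 0.16 (adjusted p = 0.0597, edgeR), and at -0.56 (adjusted p = 0.00465) without replicate 2 of the normal diet. Ndufb5 and Ndufb9 were also lower with total counts (-0.50 and -0.48, adjusted p = 0.0212 and 0.0289, edgeR), but not with hepatocyte marker scaling (adjusted p = 0.0665 and 0.102).

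Of the other accessory subunits of complex I, 8 of 18 tested fell with TMM, beside 23.5% of all genes. Their median of -0.32 was the smallest of the 3 groups of complex I. Ndufa5 was at 38.8, 36.5 and 36.6 CPM on the normal diet and at 22.1, 26.1 and 20.4 on CDAHFD. The diets were far apart compared with the spread within them (-0.70 ± 0.12, adjusted p = 0.000453, edgeR), and Ndufa5 was also lower with total counts (-0.38, adjusted p = 0.0153). Ndufa9, a subunit near the coenzyme Q site, changed by -0.58 ± 0.12 (adjusted p = 0.00227, edgeR), Ndufa6 by -0.56 ± 0.14 (adjusted p = 0.00517) and Ndufa10 by -0.46 ± 0.11 (adjusted p = 0.00363). Ndufa1 had the highest TPM of those that did not pass (-0.30 ± 0.19, adjusted p = 0.205, edgeR), with replicate 2 at 28.1 CPM beside 48.8 and 50.3 in the other normal diet libraries. Ndufa8 was the one complex I gene with a positive change (0.05 ± 0.15, adjusted p = 0.816, edgeR; -0.13 without replicate 2 of the normal diet), and it was higher with total counts (0.37, adjusted p = 0.0466) and hepatocyte marker scaling (0.50, adjusted p = 0.0106).

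**Figure D3:**
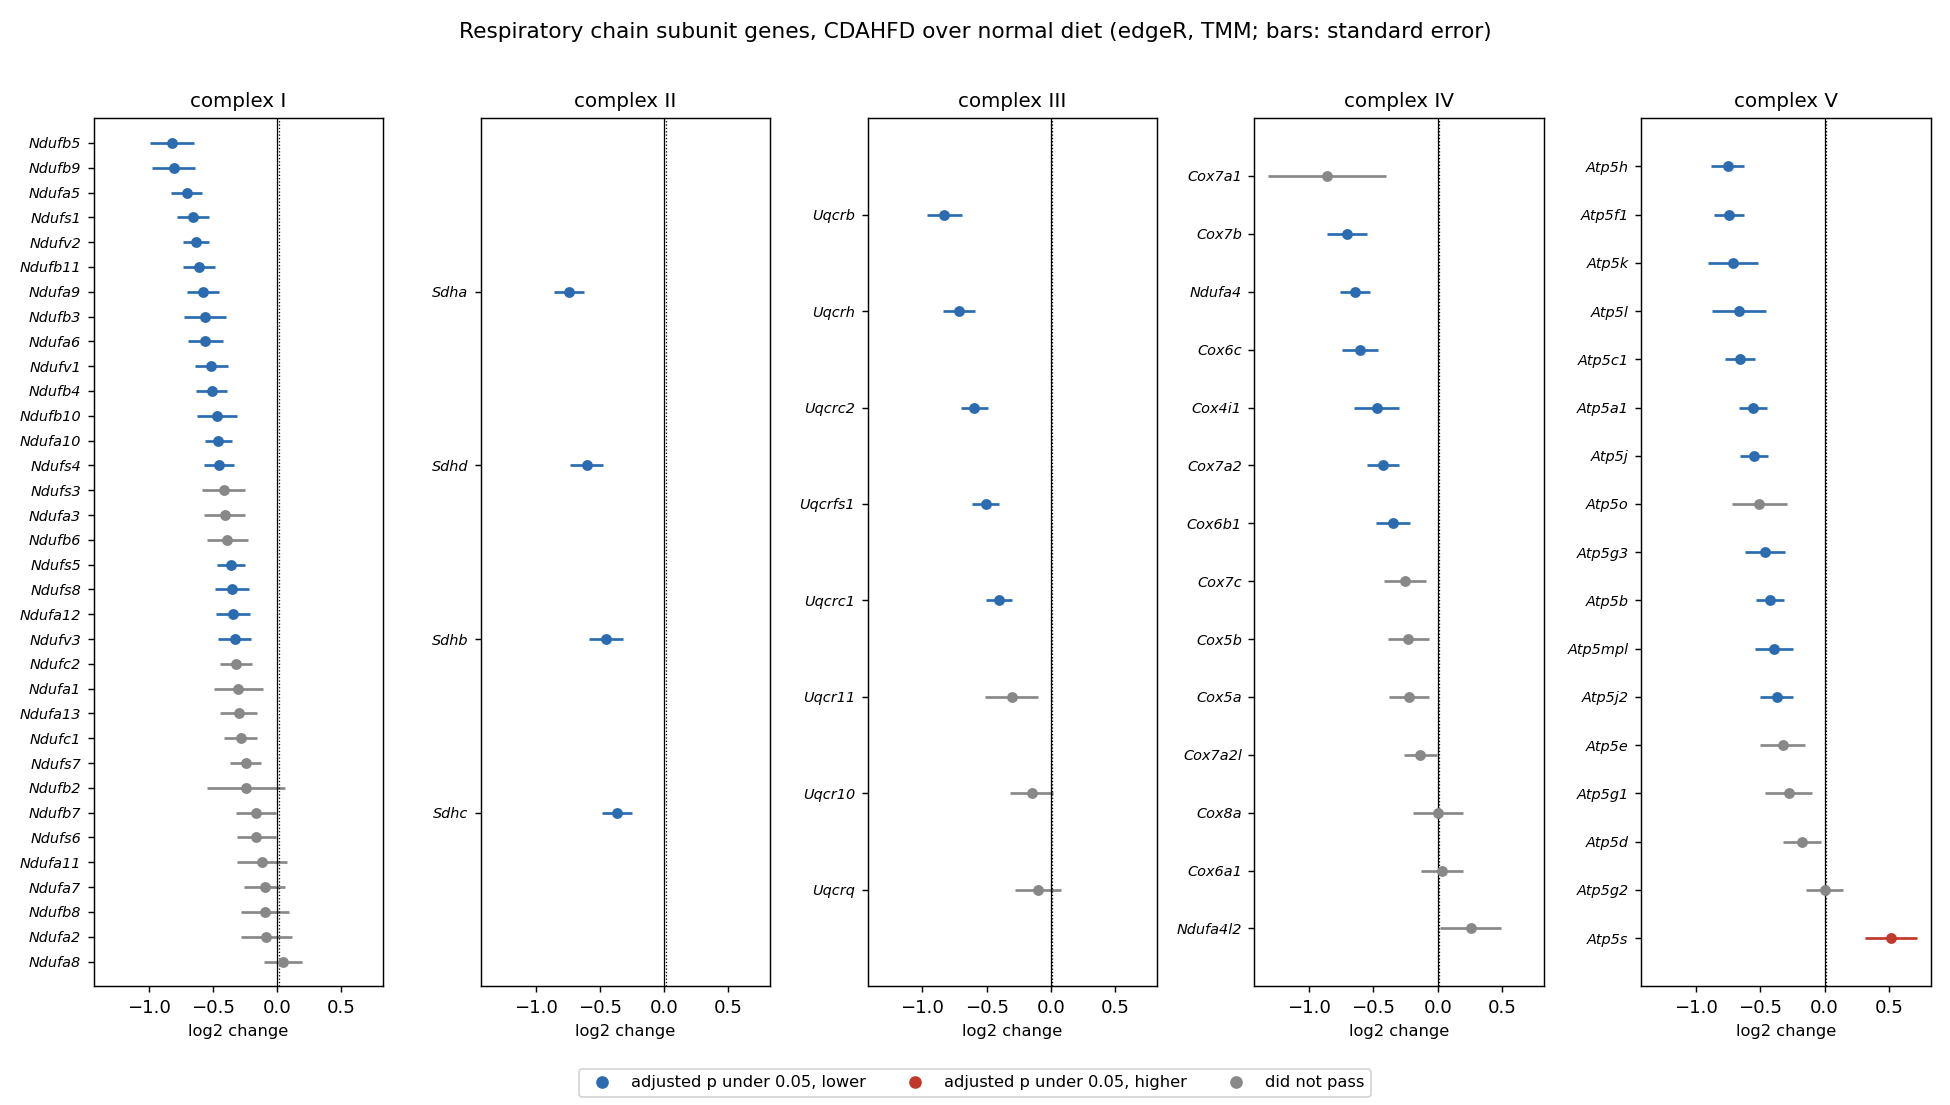
Log2 change of 77 tested members, by complex, with TMM scaling (point: edgeR estimate, bar: standard error; blue: lower, red: higher, grey: did not pass). The dotted line is the median of all genes. Of the members not drawn, Cox6a2, at 3.19, lies far outside the axis. Atp5s is the one red point.

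Complex III hands electrons from coenzyme Q to cytochrome c. With TMM 5 of its 8 members were lower and none higher (median -0.45), beside 23.5% and 28.5% of all genes. Its cytochrome c1 gene, Cyc1, is not among the 8. Uqcrb, the small subunit at the coenzyme Q binding region, had the largest fall of all members called lower, from 73.1, 61.3 and 57.8 CPM on the normal diet to 35.1, 42.6 and 30.5 on CDAHFD. The groups did not overlap (-0.83 ± 0.14, adjusted p = 0.000473, edgeR), and it was lower under total counts (-0.51, adjusted p = 0.00598) and hepatocyte marker scaling (-0.40, adjusted p = 0.0443) too. In that last setting without replicate 2 of the normal diet, no member was lower. Uqcrh, the hinge protein beside cytochrome c1, was at 162, 137 and 138 CPM against 76.1, 99.6 and 90.9, again without overlap (-0.71 ± 0.13, adjusted p = 0.000653, edgeR). Uqcrc2, a core protein, changed by -0.60 ± 0.10 (adjusted p = 0.000637, edgeR) and Uqcrfs1, the Rieske iron-sulfur protein, by -0.51 ± 0.10 (adjusted p = 0.00192). The gene with the highest TPM that did not pass, Uqcr11, was at 132, 74.7 and 153 CPM against 101, 99.0 and 91.0 (-0.30 ± 0.21, adjusted p = 0.236, edgeR). Its normal diet libraries lay on both sides of the CDAHFD libraries, and without replicate 2 its change was -0.56 (adjusted p = 0.00233, edgeR).

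Complex IV, cytochrome c oxidase, had the smallest median change of the 5 complexes with TMM (-0.26). Of its 15 tested genes 6 were lower and 1 higher, beside 23.5% and 28.5% of all genes. The higher gene is Cox6a2, which entered the test only through its CDAHFD reads. Cox7b was at 173, 128 and 162 CPM on the normal diet and at 94.3, 112 and 76.9 on CDAHFD (-0.70 ± 0.15, adjusted p = 0.00270, edgeR). Ndufa4, named for complex I but a subunit of complex IV, was at 246, 196 and 225 CPM against 141, 154 and 132 (-0.64 ± 0.12, adjusted p = 0.000863, edgeR). Neither gene overlapped between diets, and both were lower with total counts. Cox6c changed by -0.60 ± 0.14 (adjusted p = 0.00326, edgeR). Cox4i1, the common isoform of the regulatory subunit 4, was at 271, 217 and 210 CPM against 124, 171 and 207 (-0.48 ± 0.17, adjusted p = 0.0372, edgeR). Its groups came within a few CPM of each other, and the call was lost without normal diet replicate 1, CDAHFD replicate 1 or CDAHFD replicate 2 (adjusted p up to 0.142, edgeR).

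The 2 members of complex IV with the highest TPM did not pass. Cox6a1, the liver-type isoform of subunit 6a and the member with the highest mean level (1270 TPM), was at 330, 237 and 388 CPM on the normal diet and at 367, 314 and 296 on CDAHFD. The groups overlapped throughout (0.04 ± 0.17, adjusted p = 0.874, edgeR). Cox8a, the subunit 8 isoform of most tissues (830 TPM), was at 201, 127 and 229 CPM against 214, 187 and 158 (0.00 ± 0.19, adjusted p = 0.991, edgeR). Both were higher with hepatocyte marker scaling (0.49 and 0.47, adjusted p = 0.0103 and 0.0229, edgeR), and without replicate 2 of the normal diet, with TMM, their changes were -0.15 and -0.22 (adjusted p = 0.376 and 0.218).

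Several subunits of complex IV come in isoforms, and the liver isoform made up most of the Cox4, Cox6a and Cox6b pairs. Cox4i1 held 99.9% of the summed TPM of Cox4i1 and Cox4i2 on both diets, and Cox6b1 more than 99.8% of that of Cox6b1 and Cox6b2. The Cox7a set was counted with Cox7a2l, the factor of supercomplex assembly. Cox7a2 and Cox7a2l took similar parts of it, Cox7a2 with 52.1 ± 2.92% on the normal diet and 47.2 ± 4.04% on CDAHFD (SD, n = 3; exact permutation p = 0.3, two-sided). Of the set, Cox7a2 fell (-0.42 ± 0.13, adjusted p = 0.0146, edgeR; up to 0.0694 without normal diet replicate 1 or CDAHFD replicate 1). Cox7a2l was at -0.13 ± 0.13 (adjusted p = 0.408) and the muscle-type Cox7a1, below 1 CPM in every library, at -0.86 ± 0.46 (adjusted p = 0.138, edgeR). Cox6b1 was just inside the threshold (-0.35 ± 0.13, adjusted p = 0.0465, edgeR). It lost the call with upper quartile factors, the filter of 1 CPM in 3 libraries and the replicate block (adjusted p up to 0.121, edgeR), and without normal diet replicates 1 or 3 or CDAHFD replicate 1 (adjusted p up to 0.158, edgeR). Cox8b, Cox8c and Cox7b2 had 0 reads in all 6 libraries.

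Cox6a2, the isoform of subunit 6a typical of heart and skeletal muscle, was read almost only on CDAHFD. It had 1, 0 and 4 reads on the normal diet and 24, 21 and 17 on CDAHFD, so every CDAHFD library was higher. It passed the count filter and the minimum for members only through the diet where it is high, so its call (log2 3.19 ± 0.63) is a description. The size rests on few reads: leaving out a library moved it from 2.62 (without replicate 2 of the normal diet) to 4.74 (without replicate 3 of the normal diet). It was a trace beside Cox6a1, at 0.0229 ± 0.0274% of the pair's TPM on the normal diet and 0.250 ± 0.0213% on CDAHFD (SD, n = 3). Of 10 muscle markers 2 had enough reads to test and neither passed, their summed level was 0.735 to 1.42 CPM on the normal diet and 1.29 to 1.82 on CDAHFD, and Acta1, Myh6, Myh7 and Tnnc2 were at 0 in all libraries. Ndufa4l2, the relative of Ndufa4 known from hypoxic cells, held 1.22 ± 0.206% of the pair's TPM on the normal diet and 2.26 ± 0.163% on CDAHFD (SD, n = 3). Its share did not overlap between diets (exact permutation p = 0.1, two-sided, the smallest that 3 against 3 allow, and 0.175 adjusted over the 14 gene shares tested). Its own change was 0.26 ± 0.24 (adjusted p = 0.384, edgeR) with TMM and 0.70 (adjusted p = 0.0282) with hepatocyte marker scaling.

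Complex V had 11 of 17 genes lower with TMM and 1 higher (median -0.46), beside 23.5% and 28.5% of all genes. Atp5h, the d subunit of the peripheral stalk, was at 176, 176 and 140 CPM on the normal diet and at 83.4, 104 and 104 on CDAHFD (-0.76 ± 0.13, adjusted p = 0.000576, edgeR). Atp5f1, the b subunit of the same stalk, was at 371, 426 and 343 CPM against 223, 247 and 211 (-0.74 ± 0.12, adjusted p = 0.000335, edgeR). For both, the highest CDAHFD library was well under the lowest normal diet library, and both were lower with total counts (-0.43 and -0.42). Atp5k, the e subunit of the membrane part, changed by -0.71 ± 0.19 (adjusted p = 0.00936, edgeR) and Atp5l, the g subunit, by -0.66 ± 0.21 (adjusted p = 0.0203). The value of Atp5l is uncertain. Transcripts of 11 other genes match its own at 95% identity or more over at least 100 bases, and its counted level was only 4.87 TPM. Its call was lost without normal diet replicate 1 or 2 or CDAHFD replicate 1 (adjusted p up to 0.0751, edgeR). Atp5d, the delta subunit of the central stalk, had the highest TPM of those that did not pass (-0.18 ± 0.15, adjusted p = 0.334, edgeR), with 213 CPM in replicate 2 beside 296 and 329 in the other normal diet libraries and 239 to 259 on CDAHFD. Without replicate 2 it was called lower (-0.35, adjusted p = 0.0212, edgeR).

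The c subunit, which forms the rotating ring of ATP synthase, is made from 3 genes whose mature proteins are the same. Atp5g3 held 64.4%, 63.9% and 61.6% of their summed TPM on the normal diet and 54.0%, 57.9% and 59.2% on CDAHFD. Atp5g2 held 21.5%, 23.5% and 23.4% against 31.1%, 27.7% and 26.6%. Neither overlapped between diets (exact permutation p = 0.1 for each, two-sided, the smallest that 3 against 3 allow; 0.175 adjusted over the 14 gene shares tested in 6 sets), whereas Atp5g1 held 13.9 ± 1.25% and 14.5 ± 0.347% (SD, n = 3; p = 0.6, the same exact test). Such a share does not depend on the library scaling, but it does on the gene lengths used for TPM. In CPM, Atp5g1 lay above Atp5g2, at means of 162 against 89.4 on the normal diet and 134 against 89.5 on CDAHFD. As single genes, Atp5g3 fell with TMM (-0.46 ± 0.16, adjusted p = 0.0273, edgeR; up to 0.0963 without normal diet replicates 1 or 3 or CDAHFD replicate 1), and Atp5g1 was at -0.28 ± 0.19 (adjusted p = 0.228). Atp5g2 was at 0.00 ± 0.14 (adjusted p = 0.996) with TMM and higher with hepatocyte marker scaling (0.46, adjusted p = 0.0185, edgeR). Transcripts like those of Atp5g1 and Atp5g2 occur at 19 and 2 other genes, so reads may have been split by rules not given here.

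**Figure D4:**
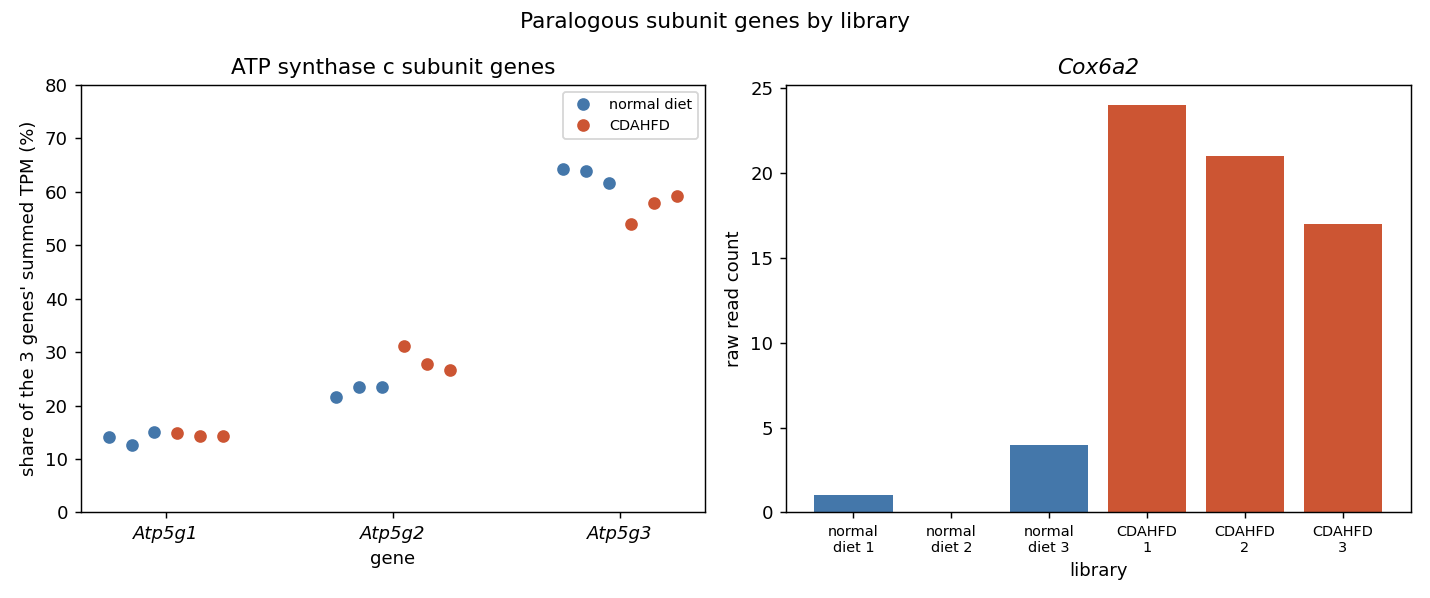
Left: share of each c subunit gene in the summed TPM of the 3 genes, per library. Right: raw read counts of Cox6a2 per library. The CDAHFD libraries lie above the normal diet libraries for Atp5g2 (26.6% to 31.1% against 21.5% to 23.5%) and Cox6a2 (17 to 24 reads against 0 to 4), and below for Atp5g3.

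Atp5s, also known as factor B, was the other gene called higher. It was at 3.54, 4.51 and 2.80 CPM on the normal diet and at 5.02, 4.94 and 5.61 on CDAHFD, with no overlap (0.52 ± 0.20, adjusted p = 0.0487, edgeR). The call was lost with RLE scaling, in DESeq2, with the replicate number as a block and in 5 of the 6 fits that leave out a library, all but the one without replicate 2 of the normal diet (adjusted p 0.0169 to 0.162, edgeR). It was called higher with total counts (0.84, adjusted p = 0.00430, edgeR) and hepatocyte marker scaling (0.95, adjusted p = 0.00160).

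The genes that assemble the chain were next compared. Of 46 tested assembly factors 20 fell and none rose (median -0.33), with 43.5% lower against 23.5% of all genes. Complex I factors accounted for 9 of 16, among them Ndufaf4 (-0.89 ± 0.14, adjusted p = 0.000274, edgeR) and Ndufaf1 (-0.76 ± 0.12, adjusted p = 0.000318). In the other lists 1 of 4 complex II factors fell (Sdhaf2, which helps attach flavin to Sdha, -0.48), 2 of 6 for complex III (Uqcc1, -0.60, and Ttc19, -0.36), 7 of 17 for complex IV (Surf1, -0.63, and Cox10, which makes heme O, -0.53, had the largest changes) and 1 of 3 for complex V (Tmem70, -0.62). The shares of the lists for complexes II, III and V, of 25%, 33.3% and 33.3%, lay near that of all genes. With total counts 6 assembly factors were lower and 3 higher, with hepatocyte marker scaling 1 and 5, and in log2(TPM + 1) 4 and 5. Over all genes the shares lower and higher in these settings were 8.07% and 44%, 4.78% and 47.7%, and 4.7% and 36.2%.

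Of 18 genes for electron carriers and coenzyme Q synthesis, 10 (55.6%) fell and 1, Coq4, rose (median -0.36, TMM), against 23.5% and 28.5% of all genes. With total counts 5 were lower and 4 higher, with hepatocyte marker scaling 2 and 4, and in log2(TPM + 1) 4 and 4. All genes had shares lower and higher of 8.07% and 44%, 4.78% and 47.7%, and 4.7% and 36.2% in these settings. Coq8a, a kinase-like protein needed for coenzyme Q synthesis, was at 173, 168 and 172 CPM on the normal diet and at 61.7, 80.8 and 92.6 on CDAHFD, the largest change of the list (-1.13 ± 0.14, adjusted p = 5.4e-05, edgeR). Etfdh, which passes electrons from fatty acid oxidation to coenzyme Q, was at 401, 461 and 382 CPM against 208, 236 and 199 (-0.95 ± 0.12, adjusted p = 5.4e-05, edgeR). Both exceed the fall of any subunit gene called lower, and neither overlapped between diets. Cyc1, the cytochrome c1 of complex III, is counted in this list and fell too (-0.43 ± 0.13, adjusted p = 0.0141, edgeR).

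Among 12 transcriptional regulators of these genes 6 (50%) fell and none rose with TMM (median -0.41), against 23.5% and 28.5% of all genes. With total counts 4 were lower and 1 higher, with hepatocyte marker scaling 2 and 2, and in log2(TPM + 1) 2 and 1. The all-gene shares lower and higher in these settings were 8.07% and 44%, 4.78% and 47.7%, and 4.7% and 36.2%. Gabpa, the DNA-binding subunit of the ETS factor GABP, changed by -0.99 ± 0.13 (adjusted p = 7.0e-05, edgeR), from 68.1 ± 11.6 to 34.3 ± 1.43 CPM (SD, n = 3). Tfam, which packages and transcribes mitochondrial DNA, changed by -0.84 ± 0.11 (adjusted p = 6.2e-05, edgeR). The others that fell were Tfb2m (-0.82), Yy1 (-0.59), Ppargc1b (-0.56) and Polrmt (-0.41). Of the factors of the motifs above, Nrf1 was at -0.23 (adjusted p = 0.159) and Esrra at -0.16 (adjusted p = 0.380, edgeR), and neither passed. These are mRNA levels, and binding was not measured.

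Other mitochondrial genes give a measure within each library that no scaling can move. The median log2 level of the members, minus that of the 14 tricarboxylic acid cycle genes, averaged -1.18 ± 0.227 on the normal diet and -1.19 ± 0.0741 on CDAHFD (SD, n = 3), a difference of -0.01. Without replicate 2 of the normal diet it was -0.13. Minus that of the 78 mitochondrial ribosomal protein genes the values were 1.89 ± 0.221 and 1.74 ± 0.0264, a difference of -0.15. Only replicate 2 of the normal diet lay below the CDAHFD libraries, and without it the difference was -0.27. By the same measure complex II stood at -0.32 and complex III at -0.36, with every CDAHFD library below every normal diet library (-0.43 and -0.42 without replicate 2). Complex IV also stood at -0.32, with replicate 2 of the normal diet inside the CDAHFD range (-0.44 without it). Complex V stood at -0.22 and complex I at -0.08, with overlap (-0.32 and -0.17 without replicate 2). Minus that of the hepatocyte markers, the values of all members were -4.83, -5.16 and -4.79 on the normal diet and -4.63, -4.75 and -4.46 on CDAHFD. Every CDAHFD library was higher by this measure, by 0.31 on average and by 0.19 without replicate 2. The marker median is the level of a single gene, Plg in the CDAHFD libraries and Plg or Ambp on the normal diet. Plg itself changed by -0.71 with TMM. Compared by median change with TMM, the lists lay close, at -0.41 for the members and -0.47 for the markers. With TMM, 7 of the 14 tricarboxylic acid cycle genes (50%) fell and 1 rose (median -0.37). Of 78 mitochondrial ribosomal protein genes 27 (34.6%) fell and 2 rose (median -0.19), and 14 of 19 hepatocyte markers (73.7%) fell and 1 rose (median -0.47). Over all genes 23.5% fell and 28.5% rose.

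**Figure D5:**
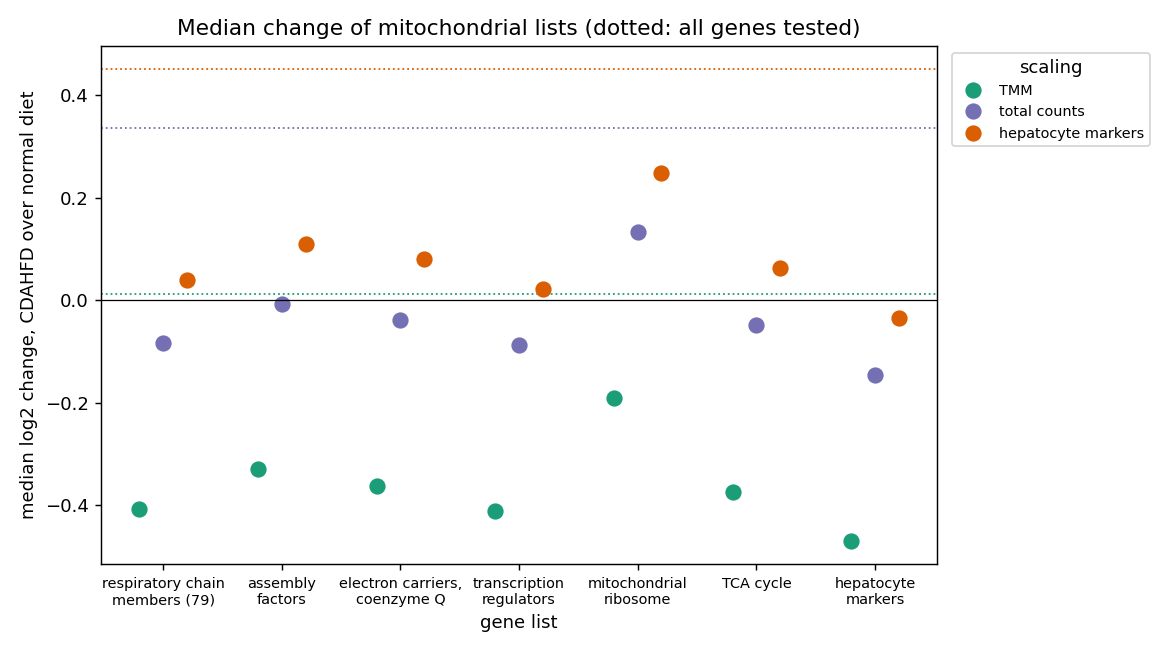
Median log2 change (CDAHFD over normal diet) of 7 gene lists under 3 scalings (colours), with the median of all genes tested as dotted lines. All 7 lists lie below the all-gene line of their scaling, and all are below 0 with TMM, while with hepatocyte markers 6 of the 7 are above 0 and the hepatocyte list itself is at -0.03. A scaling moves lists and line by nearly the same amount, so their distance is not a separate result in each of the 3.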

How the data were processed

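Liver RNA of 6 mouse libraries, 3 per diet, was analysed from 2 deposited tables. The authors deposited raw read counts per Ensembl gene and TPM (abundance per gene length, scaled to each library's total). Per the labels' protocols, TRIzol was used to isolate RNA, and a stranded mRNA kit based on ligation received 1 µg of it per library. STAR 2.7.11a and build GRCm39 come from the submitters' processing notes. How reads were counted, with which annotation and strand setting, was not given in the sources used here.

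Of 56847 gene IDs, 51911 were matched to a symbol. Genes kept by filterByExpr (minimum count 10) were tested with edgeR 4.0.16 in R 4.3.3 (TMM factors, quasi-likelihood test, diet as the only term, Benjamini-Hochberg adjustment over all genes tested, threshold 0.05). Log2 changes are CDAHFD over normal diet, with their standard error. Alternatives were other scalings and filters, DESeq2 1.42.0, limma 3.58.1 on voom weights or on log2(TPM + 1), a replicate block, and leaving out each library. Hepatocyte marker scaling set the mean log2 CPM of 19 markers equal in all libraries. Within-library differences are of median log2(CPM + 0.5). The scripts were tested on simulated data. The spread between libraries of a diet exceeded counting noise in every pair (chi-square per degree of freedom 19.5 to 43.6), so no library was counted as a copy of another. The check cannot tell libraries prepared separately from a single RNA sample from libraries of separate mice.

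Members, gene lists and tests were chosen with earlier results of these data known. Named from each group were the up to 4 members with the largest change among those called, at a mean of at least 1 CPM, and the most abundant that did not pass, with every member called higher, complex II, the isoform sets and, from each assembly, carrier and regulator list, up to 2 genes. Ndufa8, Coq4, Cldn4, Cyc1, Plg, Ambp, Ndufb2, Ndufb8, Atp5o, the further regulators and the gene names listed per scaling were added after their values were seen. Transcripts of 38 members matched those of another gene (at least 95% identity over at least 100 bases, GENCODE M21), and 5 share exonic bases with another gene on the same strand. Among the 38 are Uqcrb (3 other genes), Atp5h and Atp5f1 (4 each) and Cox7b and Cox6c (2 each). Whether this moved their counts was not tested. As the reference is GRCm38, coordinates are given only for the promoter windows, on its RefSeq build. The result of 1 member that this naming rule picks is not reported here, although it is in the counts.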

Additional observations from a re-analysis of the deposited data

How the results depend on the processing

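The 45 lower calls stayed within 1.5 times of that count (34 to 51) with RLE, upper quartile, TMM without the 20 most counted genes, no count filter, a filter of 1 CPM in 3 libraries, DESeq2, voom and the replicate block. Of all genes, 13% (no count filter) to 24.7% (RLE) were lower in these settings. Total counts gave 14 lower with a median of -0.082, and 5, 1, 3, 2 and 3 in complexes I to V. Hepatocyte marker scaling gave 1 lower and 7 higher with a median of 0.040, and 0, 0, 1, 0 and 0 by complex. The log2(TPM + 1) and log2(TPM + 0.1) fits each gave 5 lower, beside 4.7% and 4.71% of all genes, with 5 and 4 higher, medians of -0.0126 and -0.0125, and 1, 1, 2, 0 and 1 by complex. Without a TPM filter 3 were lower, 1, 1, 1, 0 and 0 by complex, beside 2.73% of all genes. The median was then -0.0126, and the members stood at -0.13 against the median gene, complex IV at 0.046. RLE, DESeq2, the 1 CPM filter (which leaves out Cox6a2) and the block left 1 higher.

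Named members took the other sign as follows. With total counts Ndufa1 was at 0.023, Uqcr11 at 0.022, Atp5d at 0.15, Atp5g1 at 0.046 and Cox7a2l at 0.19. With hepatocyte markers Ndufb6 was at 0.060, Ndufs3 at 0.040, Ndufa1 at 0.15, Sdhb at 0.0019, Sdhc at 0.080, Uqcr11 at 0.16, Atp5d at 0.28, Atp5g1 at 0.18, Cox6b1 at 0.096, Cox7a2 at 0.021 and Cox7a2l at 0.32. In log2(TPM + 1), filtered or not, Ndufa1 was at 0.10, Sdhc at 0.0033, Uqcr11 at 0.12, Atp5d at 0.21, Atp5g1 at 0.13, Cox6b1 at 0.0164 and Cox7a2l at 0.24, and log2(TPM + 0.1) gave Ndufa1 0.11, Sdhc 0.0033, Uqcr11 0.12, Atp5d 0.21, Atp5g1 0.13, Cox6b1 0.0164 and Cox7a2l 0.24. With RLE and DESeq2 alike, Atp5g2 was at -0.018 and Cox8a at -0.016.

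Leaving out each library in turn gave 31 to 62 lower, 1 to 2 higher and medians of -0.53 to -0.36, with 14 to 28 lower in complex I, 2 to 4 in II, 5 to 8 in III, 3 to 9 in IV and 7 to 13 in V. Over all genes, 19.6% to 23.3% were lower and 24.4% to 28% higher in these fits. Around 0, Ndufa8 ran from -0.13 to 0.13, Cox6a1 from -0.15 to 0.19, Atp5g2 from -0.17 to 0.15 and Cox8a from -0.22 to 0.17. After seeing the data, 2 fits without replicate 2 of the normal diet were added: total counts gave 18 lower and a median of -0.19, 6.63% of all genes lower, 7, 2, 2, 3 and 4 members lower by complex and Cox7a2l at 0.088, and hepatocyte markers gave 0 lower, 5 higher and a median of -0.017, with 3.7% of all genes lower and 54.7% higher, with Ndufa10 at 0.099, Sdhc at 0.061, Atp5d at 0.17, Atp5g1 at 0.0071, Cox6b1 at 0.058 and Cox7a2l at 0.27. Why the scalings differ was not tested.

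The replicate numbers did not pair the libraries (same-number correlations of deviations -0.047, 0.069 and 0.12). With the number as a block 44 members were lower and 1 higher, beside 23.3% and 28.5% of all genes.

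Low counted levels limit the 13 of 84 members under 10 TPM, and 3 libraries per diet limit the rest. Among the 13 are Ndufb2 (0.79 TPM), Ndufb8 (2.88), Atp5l (4.87) and Atp5o (8.04), which have similar transcripts at other genes. Ndufb2, Ndufb8 and Atp5o also share exonic bases with another gene. Whether their reads were lost to other genes was not tested, so depth need not be their limit.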

Other observations

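Coding length and GC content of the members, taken from the GENCODE M21 transcript with the longest coding sequence, went with their changes. Over the 79 tested members, Spearman's rho of the log2 change (TMM) was 0.35 with GC content and -0.24 with coding length, and over all genes 0.26 and 0.00. Without replicate 2 of the normal diet the members' values were 0.27 and -0.07. These are descriptions across genes measured in the same libraries, and the part of either property in the diet difference was not tested. The 40 members with a coding length of up to 411 bases had a median change of -0.34 with 17 called lower, and the 39 longer ones had -0.46 with 28 called lower. Without replicate 2 the medians were -0.51 and -0.56, with 29 and 33 called lower.

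The 5 members with too few reads for the edgeR test with TMM are given by their counts. Cox6b2, the testis-type isoform of subunit 6b, had 1, 5 and 5 reads on the normal diet and 8, 9 and 8 on CDAHFD. It was among those called higher in log2(TPM + 1) (0.46, adjusted p = 0.0420, limma), a call that rests on these few reads. Cox4i2, an isoform of subunit 4 known from lung, had 0, 0 and 5 against 0, 7 and 3. Ndufb4c had 13, 3 and 12 against 4, 5 and 10, Ndufs6b 1, 5 and 0 against 0, 6 and 4, and Cox6c2 3, 1 and 0 against 1, 5 and 2. Only Cox6b2 of the 5 had no overlap between diets.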
